A study of Mus musculus with 24 samples.

Results

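The microRNA miR-138 was followed through all 24 small RNA libraries of a mouse mammary tumor series. It is 1 of 510 miRNAs listed in the deposited counts, under the name mir-138, and 1 of the 237 that passed the filter on low counts. It was chosen by its own measured counts, namely the change of its tumor-normal difference between weeks 6 and 12, so its own levels are given as a description with no test. The choice came from edgeR's quasi-likelihood test of that change with Benjamini-Hochberg adjustment. There miR-138 was the 1 miRNA past the threshold of 0.05, which is 0.422% of those tested (adjusted p = 0.0239 in edgeR). This value states how miR-138 was chosen and is no support for its change. The miRNA just outside the threshold was miR-10b, with a change of -1.58 on the log2 scale (standard error 0.38, adjusted p = 0.0589 in the same edgeR test). The number past the threshold was 0 when tumor replicate 1 or 3, or normal replicate 2 or 3, was left out at every week. The choice of miR-138 thus depends on which replicates are used, though fewer libraries also weaken the test. When libraries were scaled by their size only, no miRNA was past the threshold as lower.

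Tumors came from F1 PyMT females, which are heterozygous for the polyoma middle T antigen under the mouse mammary tumor virus promoter, a promoter active in mammary epithelium. Normal mammary glands came from age-matched FVB females without the transgene, so both genotypes share the FVB background. There were 3 mice per genotype at each age, and the tumors stood for hyperplasia at week 6, adenoma or mammary intraepithelial neoplasia at week 8, early carcinoma at week 10, and late carcinoma with lung metastasis at week 12. Whole tissue was sequenced, the tumors of the first pair of stages still hold normal gland cells, and fewer cells of a type cannot be told apart from less RNA per cell.

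A mature miRNA guides an Argonaute protein to messenger RNAs, mainly through pairing of its seed with the 3′ UTR, and lowers their stability or translation. miR-138 is best known from brain, where it acts in dendritic spines on the depalmitoylating enzyme LYPLA1. In tumor cell lines it has been reported to repress EZH2 (the histone H3 lysine 27 methyltransferase), HIF1A (the hypoxia-induced transcription factor), vimentin and ZEB2 (a marker and a driver of the mesenchymal state), and RHOC and ROCK2 (which drive cell motility).

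The RefSeq sequences of GRCm38.p6 show what a count of miR-138 can come from, since the table gives 1 value for a precursor pair. Mir138-1 lies on the plus strand of chromosome 9 (chr9:122591994-122592092 in mm9) and Mir138-2 on the plus strand of chromosome 8 (chr8:96848211-96848281 in mm9). No other annotated gene overlaps either hairpin. The nearest coding genes are Abhd5, 301352 bp below Mir138-1, and D9Ertd402e, 122565 bp above it, while Mir138-2 lies between Nup93, 9245 bp below, and Slc12a3, 4811 bp above. No other miRNA is annotated within 100 kb of either. The mature arms are printed with the seed, bases 2 to 8, in capitals, since they carry the shared and the differing parts:
miR-138-5p: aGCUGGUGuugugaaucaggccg
miR-138-1-3p: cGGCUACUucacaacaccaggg
miR-138-2-3p: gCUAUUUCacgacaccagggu

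The 5p arm is the same 23 bases at both loci, so its reads cannot be assigned to a locus. The 3p arms differ. Aligned from their shared first GCUA over 20 bases, they differ at 2 positions, C5U and A11G, with the base of Mir138-1 first and positions counted from that G. Among 1738 mature entries of the table, only the 2 copies of miR-138-5p carry the seed GCUGGUG, so that miR-138 has no relative by seed. The whole hairpins are printed with the 5p arm in capitals, to show where it sits in each precursor:
Mir138-1: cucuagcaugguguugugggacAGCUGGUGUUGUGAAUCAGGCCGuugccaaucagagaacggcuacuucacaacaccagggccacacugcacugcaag
Mir138-2: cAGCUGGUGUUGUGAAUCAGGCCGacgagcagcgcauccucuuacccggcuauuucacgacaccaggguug

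To show what the seed can pair with, its reverse complement CACCAGC was searched on the sense strand of the longest 3′ UTR of each gene in the mm9 annotation. It was found in 2356 of 19915 genes (11.8%), at least once, in UTRs with a median length of 893 bases. Of 9 genes reported as targets and listed from general knowledge, 6 held 1 match each, in UTRs of 416 to 4939 bases. The 30 bases around each match are given, with the match in capitals:
Zeb2: ggttacctttgCACCAGCttcagtgttaag
Rhoc: cccatattacaCACCAGCactttatatatt
Rock2: acagagggtttCACCAGCacattagccaga
Sirt1: aggaattgctcCACCAGCattgggaacttt
Lypla1: gagtagaagttCACCAGCatcacagtagta
Ccnd3: taaaatccacaCACCAGCatttcttttgag

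In 5 of the 6, all but Zeb2, the match is followed by an A, the base that Argonaute prefers at that position. The longest UTRs of Ezh2, Hif1a and Vim hold no such match. These matches describe sequence only, and mRNA levels were not analysed here.

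miR-138 is a scarce miRNA in this tissue. Its 1340 counts over the 24 libraries made up 0.00246% of all 54524285 counts, and its mean of 23.1 CPM placed it at rank 178 by level among the 237 tested miRNAs, whose median was 180 CPM (CPM is the count scaled to the TMM-normalized library size). It was counted in every library, with 29 to 163 counts in normal glands and 11 to 55 in tumors. Totals per library spanned 1626022 to 3931375 counts for normal glands and 1032241 to 2213972 counts for tumors. A level of 3 counts, the detection floor used here, corresponded to at most 3.53 CPM in tumors and 1.72 CPM in normal glands on the same TMM scale. In a single library, the exact 95% binomial interval of its share spanned a factor of 1.37 to 2.14 in normal glands and 1.73 to 3.58 in tumors, and such intervals cover counting error only.

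At week 6, miR-138 stood at 37.8, 18.8 and 19.2 CPM in normal replicates 1, 2 and 3. The tumors of the same age had 27.4, 23.4 and 25.6 CPM. The tumors lay inside the range of the normal glands, in which replicate 1 stood apart from the other 2.

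At week 8, the normal glands had 23.9, 23.7 and 16.6 CPM. The tumors had 15.8, 19.99 and 21.2 CPM. The groups overlapped again, and the highest tumor was below the upper pair of normal glands.

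At week 10, the normal glands had 22.8, 24.5 and 25.5 CPM and the tumors 14.8, 18.1 and 14.8 CPM. Every tumor was now below every normal gland, as were the libraries of 31.6% of all tested miRNAs at that week.

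At week 12, the normal glands had 52.8, 30.7 and 47.2 CPM, the highest levels of the series apart from the first normal gland of week 6. The tumors had 15.3, 7.04 and 8.30 CPM, from 39, 11 and 11 counts. The groups were far apart, with the lowest normal gland above the highest tumor of any week. At this week 28.7% of the tested miRNAs had all tumors below all normal glands.

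**Figure D1:**
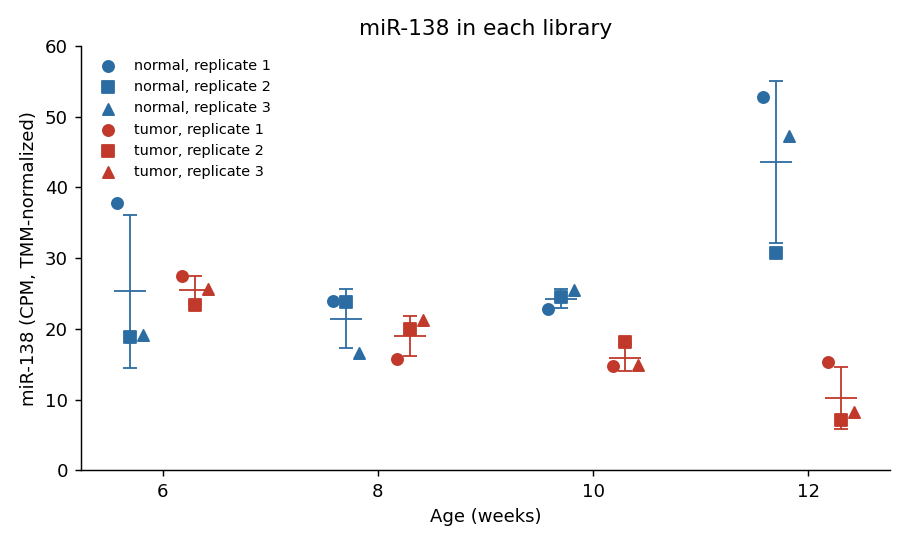
Level of miR-138 in each library (vertical axis, TMM-normalized CPM) by age in weeks (horizontal axis), with normal glands in blue and tumors in red, a symbol for each replicate number, and the group mean ± SD (n = 3) as bars. Normal and tumor libraries overlap at weeks 6 and 8 and are apart at weeks 10 and 12, where the means are 24.3 against 15.9 and 43.6 against 10.2 CPM.

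Ordered by mean, the levels of miR-138 were 43.6 ± 11.5 CPM in normal glands of week 12, 25.5 ± 2.004 in tumors of week 6, 25.3 ± 10.8 in normal glands of week 6, and 24.3 ± 1.36 in normal glands of week 10 (SD, n = 3 each). Below them stood normal glands of week 8 with 21.4 ± 4.15 CPM, and then tumors of week 8 with 19.01 ± 2.85, of week 10 with 15.9 ± 1.93 and of week 12 with 10.2 ± 4.45 CPM. Only the first group was apart from its next neighbour. All the other neighbours in this order overlapped, so that their places were not resolved by 3 libraries per group.

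The precision differed between groups. The coefficient of variation of miR-138 was 42.9% in normal glands of week 6, 43.6% in tumors of week 12 and 26.3% in normal glands of week 12, where counting alone would give about 12.2%, 26.3% and 9.66%. In tumors of weeks 6, 8 and 10 it was 7.87%, 15.02% and 12.1%, below the 15.9%, 20.05% and 20.8% of counting error. Differences among those tumor libraries of the same week were therefore within the counting noise.

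Within tumors, the mean of miR-138 was lower at each later week. The 3 tumors of week 8 were all below those of week 6, a step shown by 7.59% of the tested miRNAs, while weeks 8 and 10 and weeks 10 and 12 overlapped. From week 6 to week 12 the log2 fold change within tumors was -1.28 (standard error 0.31), and no tumor of week 12 reached the level of one of week 6, as for 21.1% of the tested miRNAs.

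Within normal glands, miR-138 kept to one level until week 10 and stood higher at week 12. Weeks 6 and 8 overlapped, as did weeks 8 and 10. The 3 normal glands of week 12 were above all those of week 10, which was seen for 5.91% of the tested miRNAs. Against week 6 the log2 fold change was 0.80 (standard error 0.29), with overlap, since normal replicate 1 of week 6 exceeded replicate 2 of week 12.

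On the log2 scale, tumors differed from normal glands in miR-138 at weeks 6, 8, 10 and 12 by 0.03, -0.22, -0.63 and -2.08, with standard errors of 0.32, 0.31, 0.20 and 0.40. The median over all tested miRNAs was -0.12, -0.09, -0.15 and -0.19 at these weeks. Counted from the lowest value of 237, miR-138 was at place 128, 111, 83 and 14, and so passed from the middle of the distribution at week 6 into its lower end at week 12. The change of the difference from week 6 to week 12, which is the value that chose it, was -2.08 (standard error 0.43), against a median of 0.10. Library sizes in place of TMM gave 0.38 for that median and -1.71 for miR-138. The same scaling moved the medians of weeks 6, 8 and 12 to -0.26, -0.22 and -0.01, so that relative to the other miRNAs the change was -2.18 with TMM and -2.10 without it.

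**Figure D2:**
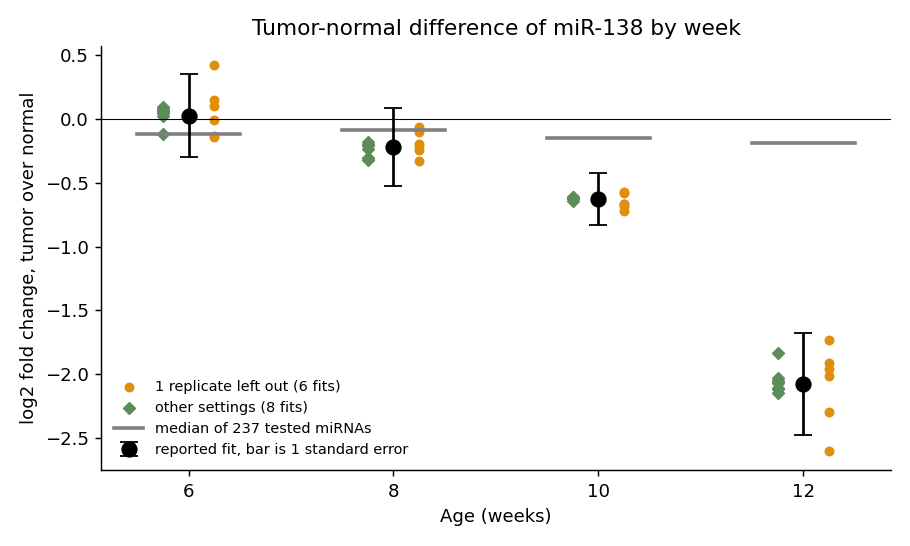
Tumor-normal log2 fold change of miR-138 (vertical axis) by age in weeks (horizontal axis), with 1 standard error as bars, the median of the 237 tested miRNAs as grey lines, the fits with 1 replicate left out as orange points and the other settings as green diamonds. The values fall from 0.03 at week 6 to -2.08 at week 12, where every setting gives between -2.60 and -1.74, while the median stays between -0.19 and -0.09.

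These refits describe the value that chose miR-138 and are no independent support for it. With each replicate left out in turn, the value of week 12 stayed between -2.60 and -1.74, that of week 10 between -0.72 and -0.57, and that of week 8 between -0.33 and -0.07 (log2 fold changes of miR-138). At week 6 the sign depended on the library, from -0.14 to 0.42, and the highest value came without normal replicate 1. The 2 sequencing lanes gave similar values at week 12, with -1.73 on lane 1 (1 tumor and 1 normal library) and -2.19 on lane 2 (2 of each). At week 10 they gave -0.60 and -0.58, and at weeks 6 and 8 their signs differed, with -0.08 and -0.41 on lane 1 and 0.40 and 0.34 on lane 2. Tumor and normal libraries with the same replicate number formed 12 pairs, though the check of pairs described below held for weeks 6, 8 and 10 only. In 9 of the 12, miR-138 was lower in the tumor. These include all pairs of weeks 10 and 12, where any matching gives the same count, since the groups do not overlap. The share of such counts over all tested miRNAs was not counted.

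Markers of other cell types moved between the same libraries. The summed CPM of 6 skeletal muscle miRNAs (miR-1, miR-133a, miR-133b, miR-206, miR-208b and miR-499), was 87499, 29089 and 95.7 in the normal glands of week 6 and 18081, 8997 and 2197 in the tumors. At week 12 it was 89385, 2466 and 711.5 in normal glands and 172, 507 and 667 in tumors. At week 8 it was at most 341 in all 6 libraries, and at week 10 it was high in replicate 3 of both genotypes, with 45434 and 17299 CPM. Of the 6, 0, 2, 1 and 0 were at 0 throughout the normal glands of weeks 6, 8, 10 and 12, and 1, 3, 1 and 2 throughout the tumors. miR-138 was highest in the normal gland with the most muscle signal at both week 6 and week 12. Its level was nearly as high, 47.2 CPM, in normal replicate 3 of week 12, where the muscle sum was 711.5 CPM. The summed CPM of 12 neural-enriched miRNAs, listed below, was 2113, 1080 and 718 in the normal glands of week 6. At week 12 it was 3313, 1085 and 2327 in normal glands and 971, 833 and 3888 in tumors. Its members past the threshold at week 12 did not move together. Their log2 fold changes were 5.57 for miR-9, 1.10 for miR-7a, -2.71 for miR-338 and -1.20 for miR-218. In the normal glands of week 12, miR-338 alone had a mean of 1599 CPM. Of the 12, 2 were at 0 throughout the normal glands of both weeks, and 4 and 3 throughout the tumors of weeks 6 and 12. The part of muscle or neural tissue in the level of miR-138 was not tested. Without normal replicate 1, the tumor-normal log2 fold change of miR-138 was 0.42 at week 6 and -1.92 at week 12, and the change between them -2.32.

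**Figure D3:**
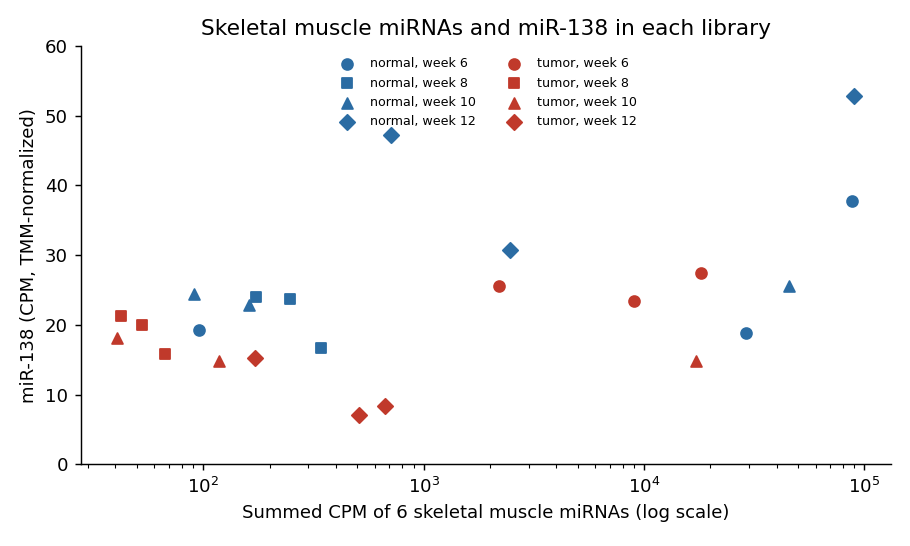
Level of miR-138 in each library (vertical axis, TMM-normalized CPM) against the summed CPM of 6 skeletal muscle miRNAs (horizontal axis, log scale), with normal glands in blue, tumors in red and a symbol for each week. The 2 libraries with the highest muscle sums, normal replicate 1 of weeks 6 and 12, have 37.8 and 52.8 CPM of miR-138, while normal replicate 3 of week 12 has 47.2 CPM at a muscle sum of 711.5.

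Markers of the labelled tissue were present in every library. The 11 epithelial miRNAs (the miR-200 family, miR-205, miR-203, miR-183, miR-96, miR-182 and miR-375) summed to between 57187 and 98550 CPM in tumors and between 15361 and 30669 CPM in normal glands. Not all members moved with the sum. At week 12, 9 were called higher, where 29.1% of all tested miRNAs were. There miR-203 was called lower, with a log2 fold change of -1.87, and miR-205, with 0.41, was not past the threshold. The 5 miRNAs of fibroblasts and smooth muscle summed to between 70032 and 136943 CPM in tumors and between 158619 and 276068 in normal glands. Tumor and normal libraries were apart in both sums at every week, and how the sums relate to miR-138 was not tested. The endothelial miR-126 stood between 6568 and 18254 CPM in tumors and between 20498 and 37464 CPM in normal glands. The erythroid sum of 3 miRNAs was 29332, 11170 and 18323 CPM in normal glands of week 12 and 4531, 8828 and 5979 CPM in tumors, and none of the 3 was at 0. The sum of 3 miRNAs linked to adipocytes was 24889, 7687 and 7878 CPM in normal glands of week 12 and 5691, 3582 and 5143 CPM in tumors. Its members did not move together, with log2 fold changes of -1.72 for miR-378, 0.29 for miR-193b and -0.20 for miR-365 at week 12. The leukocyte sum of 4 miRNAs spanned 2177 to 3241 CPM in normal glands of week 12 and 1198 to 1868 CPM in tumors, with miR-223 at 0. There miR-150 had -2.58, while miR-142 and miR-155, with -0.29 and -0.24, were not past the threshold. The part of any of these cell types in the level of miR-138 was not tested.

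Several other miRNAs are reported to act on the same target genes, and their lists were taken from general knowledge. Of 6 miRNAs reported to repress EZH2, 5 were tested, and all 5 had negative log2 fold changes at all 4 weeks. Some of these signs were not resolved. At week 6 miR-101b had -0.05 (standard error 0.15), and with 1 replicate left out miR-101b and miR-26b reached 0.04 and 0.02. The median over all tested miRNAs was also below 0, with -0.12, -0.09, -0.15 and -0.19 at weeks 6, 8, 10 and 12. The median of the 5 was -0.30, -0.44, -0.52 and -0.75 at these weeks. The edgeR test called 1, 1, 2 and 3 of them lower in tumor and none higher, where 29.5%, 13.5%, 27.4% and 21.5% of all tested miRNAs were called lower. At week 8 the replicate number as a block raised the number of lower miRNAs from 32 to 68 over all those tested and left that of these 5 at 1. For these 5 the block gave 3 lower at week 10, miR-26a among them. At week 12 it gave 2, and miR-26a was then not past the threshold (adjusted p = 0.0707 in edgeR). A single fit of all 24 libraries called 5 lower at week 12 and 2 at week 8, and library sizes 0 at week 8. The 3 called at week 12 by the weekly test without a block were miR-101a, with -0.81 (standard error 0.23, adjusted p = 0.0202 in edgeR), miR-26a, with -0.75 (0.23, adjusted p = 0.0306 in edgeR), and miR-214, with -1.08 (0.34, adjusted p = 0.0331 in edgeR). Leaving out 1 replicate moved the count of week 12 from 3 to between 0 and 4, with 0 without tumor replicate 3 and 1 without tumor replicate 2, normal replicate 1 or normal replicate 3. At week 6 the count was 0 without any of the tumor replicates or normal replicate 2 and 2 without normal replicate 3, at week 8 it was 0 in all such fits but that without tumor replicate 3, and at week 10 it was 4 without normal replicate 3. miR-214 is also a marker of fibroblasts, and it was past the threshold at every week. miR-124 had 83 counts in all libraries and was not tested.

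Of 7 miRNAs reported to repress HIF1A or its translation, 6 were tested and miR-20b was listed at 0 in every library. They split by family. miR-17, miR-18a and miR-20a of the miR-17~92 cluster, which promotes proliferation, rose in tumor at week 12 by 1.54, 2.49 and 1.72 on the log2 scale (highest adjusted p = 0.00194 in edgeR). miR-199a and miR-199b, typical of mesenchymal cells, fell by 1.41 and 1.62 (highest adjusted p = 0.00604 in edgeR). miR-155 had -0.24 (standard error 0.35). The counts were 3 higher and 2 lower at weeks 6, 10 and 12, where 29.1%, 32.9% and 29.1% of all tested miRNAs were called higher. At week 8, where 21.9% were called higher, 1 was higher and 2 were lower, and with the replicate number as a block 3 were higher. At weeks 10 and 12 no left-out replicate moved these counts, while at week 6 the number of higher ones was 0 without tumor replicate 1 or 2 and 1 without tumor replicate 3 or normal replicate 2. At week 8 it was 0 without any of the tumor replicates or normal replicate 2, and 2 without normal replicate 3. With library sizes it was 1 at week 6 and 0 at week 8.

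Of 9 miRNAs known to restrain the mesenchymal state, all were tested, and 6, 5, 6 and 6 of them were called higher in tumor at the 4 weeks, against the shares of higher miRNAs given above. The 5 members of the miR-200 family (miR-200a, miR-200b, miR-200c, miR-141 and miR-429), which repress ZEB2 as miR-138 is reported to do, rose at every week, and at week 12 by 1.78 to 2.88 on the log2 scale. These 5, miR-205 and miR-203 are also among the epithelial miRNAs, whose sum was higher in tumors at every week. Their calls are therefore not separate from that sum, and the part of epithelial cells in them was not tested. miR-203, a miRNA of differentiating epithelium, was the 1 member called lower. Its log2 fold change was -0.40, -0.31 and -0.26 over weeks 6, 8 and 10, and -1.87 by week 12 (standard error 0.63, adjusted p = 0.0390 in edgeR). This call was lost without any of the tumor replicates, and the change from week 6 to week 12 was not past the threshold, with -1.50 (standard error 0.64, adjusted p = 0.321 in edgeR).

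Of 12 miRNAs enriched in neural tissue, as miR-138 is, 7 were tested, and they went in different directions. In tumor 1, 1, 3 and 2 were higher and 2, 2, 3 and 2 lower at weeks 6, 8, 10 and 12, where 29.1%, 21.9%, 32.9% and 29.1% of all tested miRNAs were higher and 29.5%, 13.5%, 27.4% and 21.5% lower. In the single fit of all libraries, 1 was higher and 1 lower at week 10, and none lower at week 6. At week 12 miR-9, a miRNA of neural progenitors, was higher by 5.57 (standard error 1.30, adjusted p = 0.0105 in edgeR). That value was 2.85 without tumor replicate 3 and 4.06 with the replicate block. miR-7a was higher by 1.10 (0.36, adjusted p = 0.0350 in edgeR), while miR-338 and miR-218 were lower, with -2.71 (0.42, adjusted p = 0.00178 in edgeR) and -1.20 (0.33, adjusted p = 0.0199 in edgeR). Leaving out 1 replicate gave 1 or 2 higher and 1 to 3 lower at week 12, with 1 higher without tumor replicate 1 or 3 or normal replicate 2 or 3, 1 lower without tumor replicate 2 or 3, and 3 lower without normal replicate 3. At week 6 the number of lower members was 0 without tumor replicate 1 or 2, 1 without tumor replicate 3 or normal replicate 2 and 3 without normal replicate 3. At week 8 it was 0 without tumor replicate 2 or 3 or normal replicate 1 and 1 in the other 3 fits, while 2 were higher without tumor replicate 1 or 3 or normal replicate 1. With the replicate block, 2 were higher and 3 lower at week 8. At week 10, miR-128 was past the threshold in 3 of the 6 fits with a replicate left out, and miR-218 also in 3. The call of miR-218 was lost when any 1 of the tumor replicates was left out. Those of miR-9, miR-7a, miR-129 and miR-338 held in all 6 fits of week 10. The 5 members that were not tested had at most 83 counts each. miR-9 and miR-138 thus differed in sign at week 12, with a change from week 6 of 4.50 (standard error 1.84, adjusted p = 0.321 in edgeR) for miR-9.

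**Figure D4:**
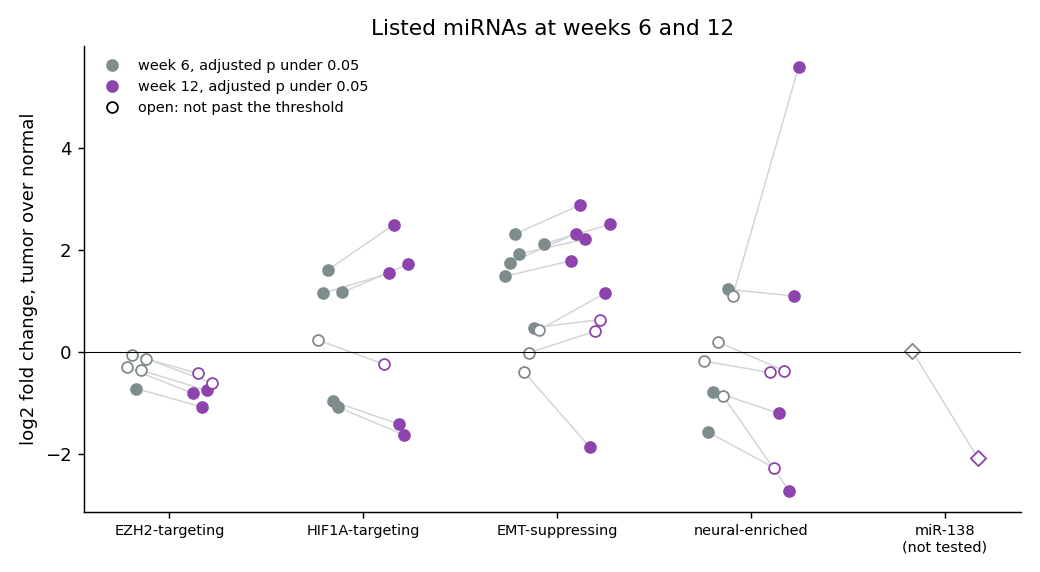
Tumor-normal log2 fold change (vertical axis) of the tested members of the 4 lists and of miR-138 (horizontal axis) at week 6 in grey and week 12 in purple, joined by lines, with filled symbols for an adjusted p under 0.05 in edgeR and open symbols otherwise. miR-138 moves from 0.03 to -2.08, all 5 miRNAs that repress EZH2 lie below 0 at both weeks, and the miR-200 family lies above 1 at both.

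The miRNAs most like miR-138 were named by Pearson's r of log2 CPM over the 24 libraries, which share genotype, age, depth and lane, so that r is a description. They were miR-338 (r = 0.72), let-7d (0.70), miR-328 (0.69), miR-1943 (0.69), miR-592 (0.68) and miR-22 (0.68), with Spearman's rho of 0.78, 0.73, 0.68, 0.69, 0.66 and 0.67. Without the 2 libraries in which miR-138 was farthest from its median, r was 0.77, 0.73, 0.72, 0.61, 0.64 and 0.65. For the first 3, r was higher in the normal glands, with 0.90, 0.72 and 0.71 over 12 libraries, than over the 12 tumors, with 0.20, 0.28 and 0.28. For miR-1943, miR-592 and miR-22 it was 0.61, 0.54 and 0.59 in tumors and 0.40, 0.50 and 0.49 in normal glands. Because miR-138 was chosen for its change by week 12, naming by likeness favours miRNAs that are low in tumors of week 12. Naming by the opposite pattern favours high ones. The calls given below for these miRNAs are therefore a description and no independent support. Over all tested miRNAs, 21.5% were called lower and 29.1% higher at week 12.

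miR-338, an oligodendrocyte and neural miRNA that lies in the gene Aatk, was closest to miR-138 in normal glands and had 768 ± 424 CPM at week 6 and 1599 ± 739 CPM at week 12 there (SD, n = 3). Its tumor level was 424 ± 144 CPM at week 6 and 249 ± 31.4 CPM at week 12. Its tumor-normal log2 fold change was -0.85, -1.90, -1.12 and -2.71 at weeks 6, 8, 10 and 12, and the values of weeks 10 and 12 were past the threshold in all 6 fits with a replicate left out. That of week 8 (adjusted p = 0.0493 in edgeR, 0.00504 with the replicate block) was lost in 5 of the 6 fits and held only without normal replicate 3. Its change from week 6 to week 12 was -1.83 (standard error 0.76, adjusted p = 0.321 in edgeR). Its seeds are shown for comparison with that of miR-138. Neither equals GCUGGUG, which does not tell whether both miRNAs share target genes:
miR-338-3p: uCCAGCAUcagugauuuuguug
miR-338-5p: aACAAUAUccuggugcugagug

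Among the others, miR-22, reported in breast epithelium as a repressor of TET enzymes, fell in tumors throughout, with differences of -0.98, -1.06, -1.20 and -1.44 on the log2 scale (highest adjusted p = 0.00739 in edgeR), and was past the threshold at every week with any replicate left out. miR-592 was rare, with a mean of 2.59 CPM. At week 12 it had 1 count over the 3 tumors and 73 over the 3 normal glands, a ratio of 0.0201 per TMM-scaled library size (exact 95% interval 0.000503 to 0.116, counting error only). Its fitted log2 value of -5.33 (adjusted p = 0.00148 in edgeR) depends on the prior count, and it was -7.40 without tumor replicate 1, where the remaining tumors had 0 counts. With the replicate block, it was past the threshold at weeks 6, 8 and 10 also (adjusted p = 0.0394, 0.0197 and 0.00173 in edgeR, and 0.0544, 0.0514 and 0.0934 with no block). miR-1943 was also scarce, with 5 to 7 counts per tumor at week 8 and 5 to 13 at week 12, where its tumor mean was 4.45 CPM. Its log2 fold change was -0.07, -0.97, -0.62 and -1.32 at the 4 weeks, which is not a steady fall. Of these, week 12 passed the threshold (adjusted p = 0.0114 in edgeR, 0.0561 without tumor replicate 2). miR-328 had -0.99 at week 12 (adjusted p = 0.0256 in edgeR), a call lost without tumor replicate 2 or 3 or normal replicate 1. let-7d, a member of the let-7 family of differentiation miRNAs, had -0.46 (adjusted p = 0.0781 in edgeR), which was not past the threshold.

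The opposite pattern was led by miR-181c (r = -0.76, rho = -0.75), miR-181d (r = -0.74, rho = -0.68) and let-7c (r = -0.71, rho = -0.62). Without the 2 farthest libraries, r was -0.75, -0.77 and -0.54. miR-181c and miR-181d come from 1 precursor transcript and share their seed, shown in capitals:
miR-181c-5p: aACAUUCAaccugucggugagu
miR-181d-5p: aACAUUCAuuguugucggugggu

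miR-181c rose in tumors, with 0.68, 0.96, 1.14 and 1.62 on the log2 scale at the 4 weeks (highest adjusted p = 0.0407 in edgeR). The calls of weeks 10 and 12 held with any replicate left out, that of week 6 in 2 of 6 fits and that of week 8 in 3 of 6. Its change from week 6 to week 12 was 0.95 (standard error 0.32, adjusted p = 0.229 in edgeR). miR-181d had 0.33, 0.28, 0.71 and 1.36, past the threshold at weeks 10 and 12 (adjusted p = 0.0346 and 0.00557 in edgeR), and at week 10 in only 1 of the 6 fits with a replicate left out, that without normal replicate 3. let-7c was not past the threshold at any week, with log2 fold changes from -0.11 to 0.43.

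**Figure D5:**
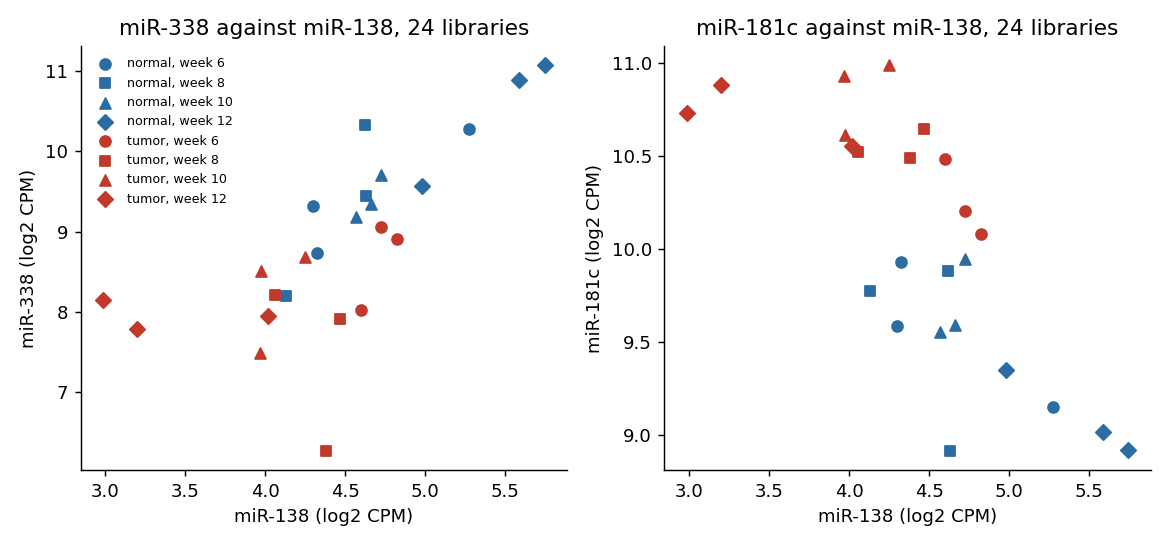
Log2 CPM of miR-338 (left) and miR-181c (right) on the vertical axes against log2 CPM of miR-138 on the horizontal axes, 1 point per library, with normal glands in blue, tumors in red and a symbol for each week. miR-338 rises with miR-138 (r = 0.72) mainly among the normal glands, and miR-181c falls with it (r = -0.76) in both genotypes.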

How the data were processed

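Small RNA from mammary tumors and normal glands was sequenced in 24 libraries. The authors trimmed the adaptor and barcode, aligned reads of 17 to 27 bases with Bowtie, counted reads overlapping over 50% of a miRBase miRNA, and deposited these counts without normalization. Their methods name mm10 and the deposited labels mm9. The treatment of reads that match several loci is not given in the sources used here. Groups, weeks, replicate numbers and lanes were taken from the labels. Each library is a separate mouse.

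The members and lists, including miR-138 itself, were chosen with earlier results of these data known. Tumor and normal libraries were compared per week with edgeR 4.0.16 in R 4.3.3 (limma 3.58.1), with TMM, filterByExpr and quasi-likelihood tests, adjusted by Benjamini-Hochberg over 237 miRNAs. Changes between weeks used a fit of all libraries. Log2 CPM had a prior count of 2. Besides miR-138, the text names 6 miRNAs of highest and 3 of lowest correlation with it, members of the lists, and miR-10b as the value next to the threshold, which was named after its value was seen. Alternatives were DESeq2 1.42.0 (Wald test or size factors), library sizes, other filters, a single fit, lane, replicate block and left-out replicates. Python 3.11.15, numpy 2.4.6, pandas 2.3.3, scipy 1.17.1 and matplotlib 3.10.9 were used for intervals, sequences and plots. The fits were tested on simulated data.

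Replicate numbers were checked as pairs. Deviations from the group means correlated at over 0.1 in 10 of 12 same-numbered pairs (0.03 to 0.82). These were all pairs of weeks 6, 8 and 10 and 1 pair of week 12. The numbers thus pair the libraries of those 3 weeks only, through the data and not through a stated litter or batch. Same-numbered libraries of a week also share a sequencing lane, so these correlations do not separate a pairing from a lane effect.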

Additional observations from a re-analysis of the deposited data

Results flagged for a closer look

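Among 54 miRNAs looked at, 8 had all tumors of week 12 on one side of the week 6 tumor mean and all normal glands of week 12 on the other side of the week 6 normal mean. They are given with the change of the tumor-normal log2 difference from week 6 to week 12. The 54 were miR-138, the miRNAs named by their likeness to it or by the opposite pattern, and the tested list members. Such naming favours this pattern, and its share over all tested miRNAs was not counted. For miR-138 the change was -2.08, which is the value that chose it, so its adjusted p is no support for it. The edgeR interaction test with Benjamini-Hochberg adjustment was past the threshold for none of the other 7. The change was -0.87 for miR-126 (adjusted p = 0.326 in edgeR), -1.78 for miR-150 (0.118), -1.24 for miR-1943 (0.196), -0.52 for miR-199b (0.426) and -3.79 for miR-592 (0.321), which had 1 count in the tumors of week 12. It was 0.95 for miR-181c (adjusted p = 0.229 in edgeR) and 0.72 for miR-96 (0.432). In edgeR 0 miRNAs other than miR-138 were past the threshold for this change, and 30 had an unadjusted p under 0.05.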

How the results depend on the processing

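The log2 fold change of miR-138 at weeks 8, 10 and 12 and its change from week 6 to week 12 kept their sign in all settings tried, and at week 6 it was -0.11 with library sizes and 0.06 with DESeq2 size factors. Its mean in tumors of week 6 was 23.3 CPM with DESeq2 size factors. With the replicate block, its values were 0.08, -2.11 and -2.17 at week 6, at week 12 and for the change. Counts over all miRNAs moved more. At week 8, 33 were higher with library sizes, and 50, 52 and 68 were lower with the Wald test, a single fit and the replicate block, where the reported test gave 52 and 32. For the change, 0 were lower with library sizes, 2 with at least 10 counts, 2 with the Wald test (which also gave 1 higher), 2 with the replicate block and 2 with lane, against 1. With 1 replicate left out, the higher ones numbered 44 to 72 at week 6 and 32 to 48 at week 8, and the lower ones 30 to 78, 18 to 33, 37 to 71 and 24 to 52 at weeks 6, 8, 10 and 12 and 0 to 1 for the change. Library sizes gave 56 higher and 83 lower at week 6, and 69 and 36 at week 12, where the reported test gave 69 and 70, and 69 and 51. Settings for week 12 values of the 35 other named miRNAs were chosen after seeing the data, and 439 of 487 kept the sign and the call. The sign turned for miR-128, with 0.0529 under the block, 0.00660 with lane and -0.83 to 0.69 with 1 replicate left out (0.69 without normal replicate 1), for miR-155, with -0.49 to 0.17 (0.17 without normal replicate 2), and for miR-205, with -0.0366 to 1.60 (-0.0366 without normal replicate 3), and the cause was not tested. Tumor libraries of week 12 held as few as 11 counts of miR-138, which limits its value there.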
